A study of Mus musculus with 40 samples.

Results

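Loss of Dux in cells that overexpress Pramel7 was read from 2 libraries of DuxKO_P7OE cells against 2 libraries of P7OE cells. These are 4 of the 12 libraries of 1 RNA-seq count table, and 4 of the 40 samples of the series, of which 34 are RNA. They were taken by their genotype labels, with no measured value, and are described here across all genes. The series examined the 2-cell-like state of mouse embryonic stem cells, and every library used here is E14tg2a, a mouse embryonic stem cell line, grown in serum with leukaemia inhibitory factor. P7OE cells overexpress Pramel7 with no labelled change at Dux. DuxKO_P7OE cells carry a Dux knockout together with Pramel7 overexpression. The same table holds 4 WT libraries, 2 of a Dux knockout without Pramel7 overexpression (DuxKO) and 2 of a Pramel7 knockout (P7KO). The labels used here do not give the promoter or vector behind Pramel7, the deleted part of Dux, or whether a genotype is 1 clone or several. They also do not say whether replicates came from separate cultures, so the p-values measure only the spread between these libraries, which may be technical.

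Dux encodes a double homeobox transcription factor that is switched on in the 2-cell mouse embryo and turns on the genes of that stage. A small share of embryonic stem cells in culture passes through a similar 2-cell-like state, in which Zscan4, Usp17l, Tcstv, Tdpoz and Zfp352 genes are expressed. Pramel7 is a leucine-rich repeat protein of the PRAME family, which in embryonic stem cells directs UHRF1, the partner of the maintenance DNA methyltransferase Dnmt1, to degradation through a cullin ligase.

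Total counts were 30135341 and 17061530 in the P7OE libraries and 11089600 and 10123058 in the DuxKO_P7OE libraries, the 2 shallowest of the table (the other 8 libraries ran from 20390473 to 30095967). Dux is listed as Duxf3. It had 17 counts and 1 count in P7OE and 0 and 0 in DuxKO_P7OE, against 2, 1, 1 and 0 in WT and 0 and 0 in DuxKO, and it was too low to be tested. The label could thus be read in 1 P7OE library only, and 0 counts still allow up to 3 counts, which in the DuxKO_P7OE libraries is 0.275 and 0.289 CPM (counts scaled to library size). Pramel7 had 435 and 431 counts in P7OE and 537 and 588 in DuxKO_P7OE, or 14 and 26.2 CPM against 49.3 and 56.7 CPM. The groups did not overlap, and Pramel7 was higher in DuxKO_P7OE by 1.4 on the log2 scale (SE 0.30). The difference missed the threshold (edgeR quasi-likelihood, Benjamini-Hochberg adjusted p 0.166) and passed it with DESeq2 (Benjamini-Hochberg adjusted p 0.00754). The part of this difference in the results below was not tested.

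Markers of embryonic stem cells (8 genes, among them Pou5f1, Sox2 and Nanog) summed to 2317 and 2369 CPM in P7OE and 2326 and 2428 CPM in DuxKO_P7OE, with no marker at 0. Markers of fibroblasts, the usual feeder cells, summed to 10.95 to 12.6 CPM and 12.8 to 13.1 CPM, with Col3a1, Postn and Lum at 0 in both groups. Primitive endoderm markers summed to 76.96 to 81.5 CPM in P7OE and 71.5 to 77.9 CPM in DuxKO_P7OE, against 7.27 to 8.999 CPM in WT, so both Pramel7 groups stood above WT and overlapped each other. Among well expressed genes (average log2 CPM 4 or more), the SD of the log2 difference between libraries was 0.233 within P7OE, 0.321 within DuxKO_P7OE and 0.314 to 0.399 between them. The same SD was 0.514 and 0.545 between WT and DuxKO libraries of the same number, replicates 3 and 4. It was 0.231 between WT replicates 3 and 4 and 0.41 between WT replicates 5 and 6. The values between DuxKO_P7OE and P7OE libraries thus took in the value within DuxKO_P7OE and lay above the value within P7OE. In bulk RNA, fewer cells in a state and less RNA per cell in that state cannot be told apart.

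The sequences that go with the main finding come from genes of a tandem array and from the Zscan4 family. On chromosome 10, RefSeq (GRCm38.p6) lists 7 protein-coding genes in a row, Gm21293, Gm6763, Gm8764, Gm21304, Gm21312, Gm20765 and Gm4340, from 104142987 to 104196522, with starts 8509 or 8510 bases apart. Windows of the 250 bases before the start were at hand for 6 of them, and any pair of these windows was the same at 249 or 250 positions. The window of Gm21304 is shown for the array, 5′ to 3′ on the plus strand, chr10:104168265-104168514, with a match to GATTNAATC in capitals, 146 bases before the start.

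Gm21304: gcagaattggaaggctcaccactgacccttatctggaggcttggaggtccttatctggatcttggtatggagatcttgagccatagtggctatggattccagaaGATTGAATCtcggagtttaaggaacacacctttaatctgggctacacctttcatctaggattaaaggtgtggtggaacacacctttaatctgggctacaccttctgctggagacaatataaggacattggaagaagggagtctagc

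The Zscan4 genes lie on chromosome 7. No window was at hand for Zscan4a, Zscan4e or Zscan4-ps2, of which Zscan4-ps2 is the only Zscan4 gene called below. There was none for Anxa3 either, which was also called. The windows of Zscan4b, Zscan4c, Zscan4d and Zscan4f each hold a match to GATTNNATC. These 4 matches are read on the other strand and lie between 90 and 124 bases before the start. They are shown with 20 bases on each side of the match, 5′ to 3′ in the direction of the gene, the match in capitals, to set the family members beside one another. Their positions are chr7:10905112-10905160 (Zscan4b, minus strand), chr7:11005612-11005660 (Zscan4c, plus strand), chr7:11166244-11166292 (Zscan4d, minus strand) and chr7:11397805-11397853 (Zscan4f, plus strand).
Zscan4b: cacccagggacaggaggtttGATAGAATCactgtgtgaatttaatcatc
Zscan4c: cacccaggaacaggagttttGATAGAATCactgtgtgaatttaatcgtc
Zscan4d: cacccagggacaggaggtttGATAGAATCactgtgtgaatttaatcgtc
Zscan4f: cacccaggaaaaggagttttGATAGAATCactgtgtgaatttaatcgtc

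These letters resemble the core of the known binding preference of mouse Dux. GATTNNATC and GATTNAATC, a case of the first, were searched on both strands, after their presence at some of these genes had been seen. Of 32851 RefSeq windows of 250 bases before a start, 458 (1.39%) hold the first and 81 (0.247%) the second. The windows of Usp17la, Usp17lb, Usp17lc and Usp17ld, genes of a further 2-cell family described below, hold neither. A match is a description of the letters and not a measured binding site, and no match says only that these letters are not in the window.

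Between DuxKO_P7OE and P7OE, 6 of 20161 tested genes were called (0.0298%), all 6 lower in DuxKO_P7OE: Gm21304, Gm20765, Gm21312, Gm4340, Zscan4-ps2 and Anxa3. Called means a Benjamini-Hochberg adjusted p below 0.05 over all tested genes, from the quasi-likelihood test of edgeR. Of the 6, 5 belong to the Zscan4 family or to the array on chromosome 10, and Anxa3, a calcium-dependent phospholipid-binding annexin, is the exception. At an unadjusted p under 0.05, 2250 genes (11.2%) passed. The count moved with the libraries and the model of the fit. It was 63 in a fit of the 4 libraries alone, 403 without WT replicates 5 and 6 and P7KO, 333 with a replicate block and 147 by DESeq2 (0.915% of 16068 genes), with 87 higher (0.541%) and 60 lower (0.373%), and each of these kept all 6 genes. Without P7OE replicate 1 it was 2, without DuxKO_P7OE replicate 1 it was 3, and without DuxKO_P7OE replicate 2 it was 11.

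**Figure D1:**
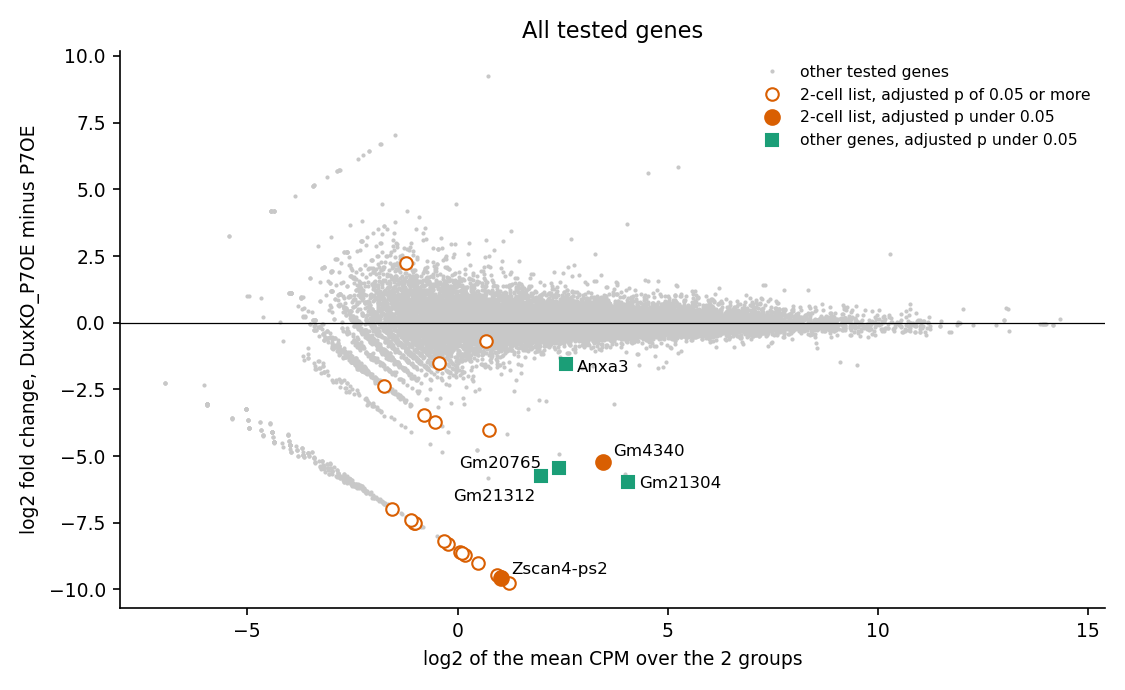
Each point is 1 tested gene, with its mean level over both groups on the x axis (log2 CPM) and its log2 fold change, DuxKO_P7OE minus P7OE, on the y axis. Filled symbols are the 6 called genes, and open circles are other genes of the 2-cell list, most of them on the diagonal of genes with 0 counts in DuxKO_P7OE. The 16 tested genes with no count in these 4 libraries are not drawn.

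The array on chromosome 10 gave 4 of the 6 calls. These genes are predicted and are named because they were called. Gm21304 was called under all 15 alternatives. Leaving out P7OE replicate 1 ended the calls of Gm21312, Gm20765 and Gm4340, leaving out DuxKO_P7OE replicate 1 those of Gm21312 and Gm20765, and leaving out DuxKO_P7OE replicate 2 those of Gm21312 and Gm4340. Gm21304 stood at 37.6 and 28.3 CPM in P7OE and at 0.55 and 0.482 CPM in DuxKO_P7OE, or −5.98 on the log2 scale (SE 0.52, edgeR quasi-likelihood, Benjamini-Hochberg adjusted p 0.000678). Gm4340 stood at 24.2 and 18.7 CPM against 1.01 and 0.0964 CPM, a log2 fold change of −5.24. Both P7OE libraries were high, both DuxKO_P7OE libraries were low, and the groups did not overlap for either gene. Gm20765 had 390 and 137 counts in P7OE and 2 and 3 in DuxKO_P7OE, a ratio of 47.3 between the groups' CPM (95% exact counting interval 20.1 to 146). Gm21312 had 273 and 110 counts against 2 and 1, a ratio of 57.3 (95% exact counting interval 19.5 to 279). These intervals cover counting error only.

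The other 3 genes of the array carried few reads and were not called. Gm21293 had 44 and 26 counts in P7OE and 1 and 0 in DuxKO_P7OE. Gm6763 had 21 and 18 counts against 0 and 0, and Gm8764 had 25 and 15 against 0 and 0. In all 7 genes of the array both P7OE libraries thus lay above both DuxKO_P7OE libraries, as in 25.8% of all tested genes. Because the copies are nearly the same, reads may have been split between them, and the share of any single copy is uncertain.

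In WT the array was expressed at lower levels. Gm21304 ran from 1.73 to 4.19 CPM over the 4 WT libraries, stood at 10.1 and 5.6 CPM in P7KO and fell to 0.28 and 0.143 CPM in DuxKO. Gm4340 ran from 1.05 to 3.04 CPM in WT and stood at 0.168 and 0.107 CPM in DuxKO. Between DuxKO and WT, with no library in common with the comparison above, both genes were called lower (edgeR quasi-likelihood, Benjamini-Hochberg adjusted p 0.00027 for Gm21304 and 0.00232 for Gm4340). For Gm21304 the DuxKO_P7OE libraries lay above the DuxKO libraries and below every WT library.

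**Figure D2:**
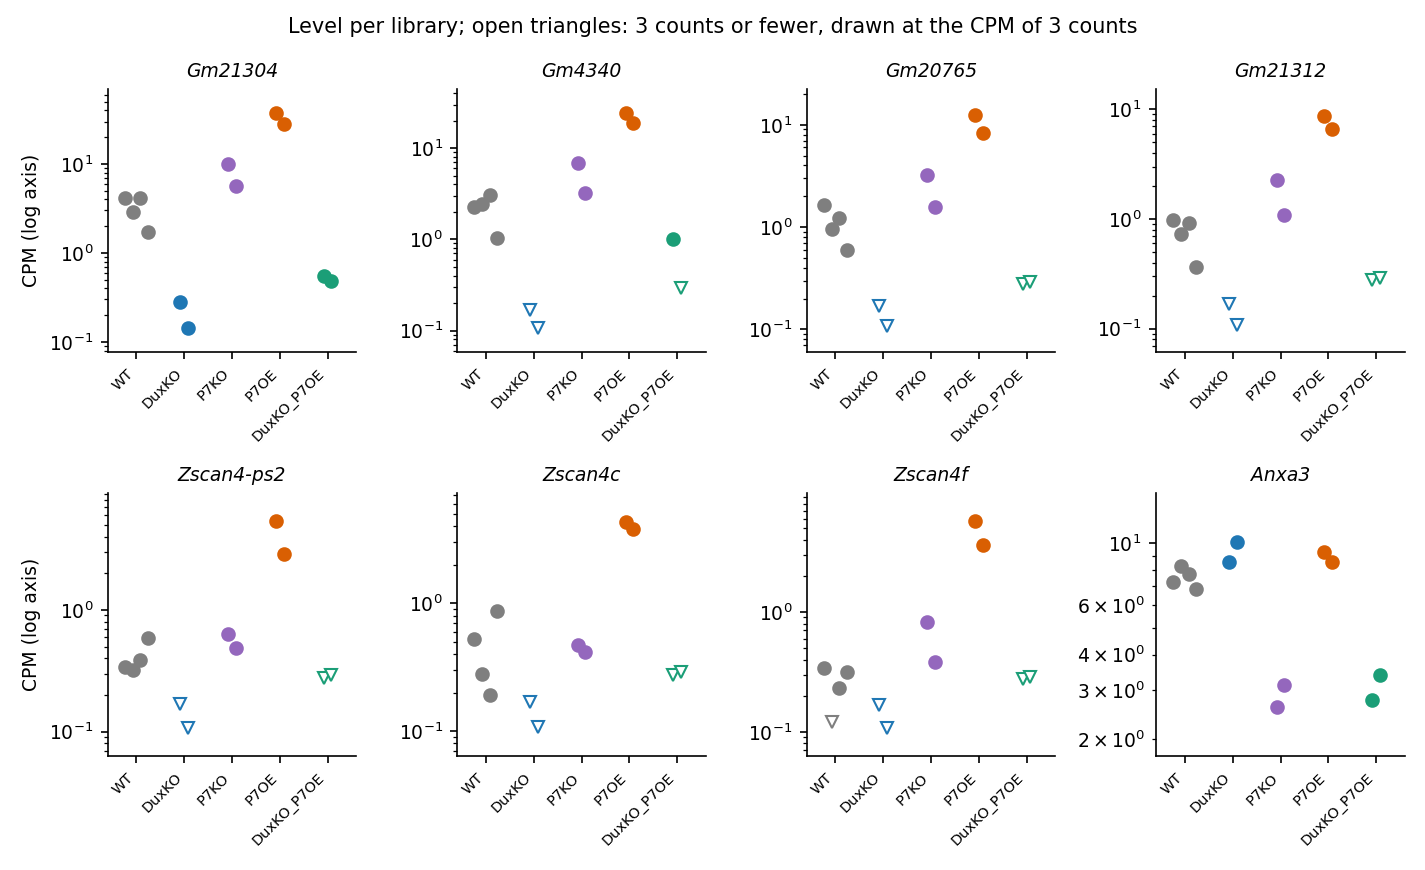
Level in CPM (log axis) of 8 genes in each of the 12 libraries, by group; open triangles mark libraries with 3 counts or fewer and are drawn at the CPM that 3 counts would give. For the array genes and the Zscan4 genes P7OE is the highest group; the Zscan4 genes are at 0 in DuxKO_P7OE and DuxKO, and Gm21304 and 1 library of Gm4340 lie higher in DuxKO_P7OE than in DuxKO. For Anxa3 DuxKO lies with WT and P7OE and only P7KO is as low as DuxKO_P7OE.

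All 9 tested Zscan4 genes, which encode zinc finger proteins of the 2-cell embryo and 3 of which are pseudogenes, had 0 counts in both DuxKO_P7OE libraries. In P7OE they summed to 870 and 407 counts, or 28.1 and 24.8 CPM. Zscan4-ps2, at 5.32 and 2.86 CPM in P7OE, was at least 14.5-fold lower in DuxKO_P7OE against a floor of 3 counts per library, and it was the one Zscan4 gene called (edgeR quasi-likelihood, Benjamini-Hochberg adjusted p 0.0185). That call was lost without P7OE replicate 1, without DuxKO_P7OE replicate 1 and without DuxKO_P7OE replicate 2 (adjusted p up to 0.227). Zscan4c, at 4.32 and 3.83 CPM in P7OE, was at least 14.5-fold lower. Zscan4f, at 5.71 and 3.59 CPM, was at least 16.5-fold lower. Both just missed the threshold (edgeR quasi-likelihood, Benjamini-Hochberg adjusted p 0.0573 for each), and DESeq2 called both (Benjamini-Hochberg adjusted p 0.000843 and 0.000632). The same bound was 9.97-fold for Zscan4e, 8.06-fold for Zscan4a, 7.60-fold for Zscan4b and 5.67-fold for Zscan4d, none of them called by edgeR. The family's members are near-identical, so counts of single members are uncertain.

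Zscan4 RNA was low in WT and lower in DuxKO. Zscan4c ran from 0.192 to 0.864 CPM in the 4 WT libraries and was at 0 in both DuxKO libraries, and Zscan4f ran from 0.0402 to 0.341 CPM in WT and was also at 0 in DuxKO. P7OE stood above every WT library for both genes, and DuxKO_P7OE stood at 0, with DuxKO. In a second count table, with other WT and DuxKO libraries, both genes were also called lower in DuxKO (edgeR quasi-likelihood, Benjamini-Hochberg adjusted p 0.0414 for Zscan4c and 0.00836 for Zscan4f).

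The 5 tested Usp17l genes, which encode deubiquitinating enzymes of the USP17 family, summed to 337 and 124 counts in P7OE and 4 and 2 in DuxKO_P7OE. Usp17le stood at 3.74 and 2.56 CPM against 0.367 and 0 CPM, a log2 fold change of −4.04 that edgeR did not call (quasi-likelihood, Benjamini-Hochberg adjusted p 0.225) and DESeq2 did (Benjamini-Hochberg adjusted p 0.0452). None of the 5 was called by edgeR. Of the whole 2-cell list, 22 of the 39 genes in the table could be tested, 2 were called lower and 0 higher by edgeR, and DESeq2 called 6 lower. Without P7OE replicate 1 or without DuxKO_P7OE replicate 2 edgeR called 0 members, without DuxKO_P7OE replicate 1 it called 1, and over all alternatives 0 to 12. The log2 fold change was below 0 for 21 of the 22, and for 20 both DuxKO_P7OE libraries lay below both P7OE libraries (25.8% of all tested genes). The list's median log2 fold change was −7.51, or −2.55 with genes at 3 counts or fewer in DuxKO_P7OE set to their bound, against −0.02 over all tested genes. The exception was Trim43c, at 0.0323 and 0.304 CPM in P7OE and 1.19 and 0.193 CPM in DuxKO_P7OE, where the groups overlapped. A gene passed the filter here mainly through its level in P7OE, so these counts describe the tested members and not the whole list.

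Another 17 genes of the list were too low to be tested, and 12 of them had counts in P7OE and 0 in both DuxKO_P7OE libraries. They include BB287469 (39 and 3 counts in P7OE), Tdpoz5 (18 and 0), AF067061 (17 and 5), Tmem92 (15 and 7), Tcstv3 (15 and 4) and Zfp352 (8 and 4). Most of these reads came from P7OE replicate 1, which is also the deepest library of the table. The 22 tested genes of the list summed to 70.9 and 56.0 CPM in P7OE and 3.39 and 3.28 CPM in DuxKO_P7OE. They summed to 7.32 to 9.01 CPM in WT, 2.80 and 3.22 CPM in DuxKO and 14.6 and 11.2 CPM in P7KO, so P7KO also stood above WT. The DuxKO_P7OE sum was thus below WT and close above DuxKO. This sum leaves out the 17 untested genes, and its members passed the filter mainly through their level in P7OE.

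Anxa3 was the one called gene outside these families. It stood at 9.29 and 8.58 CPM in P7OE and 2.75 and 3.37 CPM in DuxKO_P7OE, or −1.55 on the log2 scale (SE 0.22, edgeR quasi-likelihood, Benjamini-Hochberg adjusted p 0.0279). The groups did not overlap. WT ran from 6.87 to 8.28 CPM and DuxKO stood at 8.56 and 10 CPM, so the DuxKO libraries were not lower than WT, and the 2 Dux contrasts differed by −1.85 (interaction, edgeR quasi-likelihood, Benjamini-Hochberg adjusted p 0.00151). P7KO, at 2.61 and 3.13 CPM, was as low as DuxKO_P7OE. Leaving out any 1 of the 4 libraries ended the call of Anxa3 (edgeR quasi-likelihood, Benjamini-Hochberg adjusted p 0.0561 to 0.285), with log2 fold changes from −1.71 to −1.42.

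Genes near the threshold that DESeq2 called were read next, chosen after their values were seen. Cpe, which encodes a carboxypeptidase that trims peptide hormones, stood at 13.6 and 14.3 CPM in P7OE and 3.94 and 5.21 CPM in DuxKO_P7OE, a log2 fold change of −1.61 (SE 0.26). Grin2a, an NMDA receptor subunit gene, stood at 3.16 and 5.42 CPM against 0.917 and 0.964 CPM. Between WT and DuxKO both genes were called in the other direction: Cpe rose from 2.17 to 3.68 CPM in WT to 7.38 and 8.65 CPM in DuxKO, and Grin2a from 0.908 to 1.45 CPM to 6.94 and 7.75 CPM. For Cpe the test missed the threshold between DuxKO_P7OE and P7OE (edgeR quasi-likelihood, Benjamini-Hochberg adjusted p 0.0592; DESeq2 0.000168), and it missed it for Grin2a too (adjusted p 0.0947; DESeq2 0.00444). Gal3st3, a sulfotransferase gene, was lower in both settings: it stood at 22.9 and 24 CPM in P7OE, 3.12 and 2.51 CPM in DuxKO_P7OE, 8.96 to 52.9 CPM in WT and 3.64 and 5.18 CPM in DuxKO. Its log2 fold change between DuxKO_P7OE and P7OE was −3.06 (edgeR quasi-likelihood, Benjamini-Hochberg adjusted p 0.167; DESeq2 0.0128), and in the second table the DuxKO value was 0.55 and not called.

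Of the 146 DESeq2 calls among genes tested by both tools, 41 (28.1%) were also called by edgeR between DuxKO and WT, against 16.7% of all tested genes. The 41 are 1.22% of the 3361 genes called there, and DESeq2 called 0.915% of the 16068 genes it tested. Of these 41, 14 were lower in both comparisons, 7 were higher in both, and 20 were called in opposite directions. The 14 include Gm21304, Gm4340, Zscan4c, Zscan4f, Usp17le and Gal3st3. The 7 that were lower here and higher in DuxKO include Cpe and Grin2a, and the 13 that were higher here and lower in DuxKO include Phlda2 and Castor1.

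Outside the 2-cell list, the 22 other gene lists held 388 tested entries and 0 edgeR calls, with list medians from −0.24 to 0.25 on the log2 scale. Under at least 1 alternative, 12 of these lists held a call. In the list of 28 Wnt, Nodal and Bmp pathway genes, 12 passed an unadjusted p of 0.05 (11.2% of all tested genes), and DESeq2 called 1 higher. For 11 of the 28 both DuxKO_P7OE libraries lay below both P7OE libraries (25.8% of all tested genes). For 10 they lay above (20.8%), and the list's median was −0.02. Of the 15 naive pluripotency genes, 2 passed an unadjusted p of 0.05 (11.2% of all tested genes). Of the 15, 11 lay below 0 (52.3% of all tested genes), with a median of −0.12. Klf4 stood at 71.5 and 68.4 CPM in P7OE and 63.6 and 73 CPM in DuxKO_P7OE, and the groups overlapped. Tbx3, at 121 and 123 CPM against 77.1 and 93.1 CPM, did not overlap and was not called (log2 fold change −0.52). The 16 core and formative pluripotency genes had a median of 0.05, and Pou5f1, the Oct4 gene, stood at 595 and 515 CPM against 649 and 598 CPM.

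DNA methylation genes are of interest because Pramel7 acts on UHRF1 protein. None of the 12 was called, 10 lay below 0 (52.3% of all tested genes) and the median was −0.24. In 9 of them both DuxKO_P7OE libraries lay below both P7OE libraries (25.8% of all tested genes). Uhrf1 RNA stood at 347 and 332 CPM in P7OE and 312 and 315 CPM in DuxKO_P7OE, and Dnmt1, the maintenance methyltransferase gene, at 373 and 381 CPM against 302 and 313 CPM. Tet2, which encodes an enzyme that oxidises methylcytosine, stood at 211 and 224 CPM against 162 and 160 CPM. For all 3 genes the DuxKO_P7OE libraries lay below the P7OE libraries by less than the test could call, with log2 fold changes of −0.12 (SE 0.14), −0.29 (SE 0.18) and −0.43 (SE 0.23). Dnmt3a, a de novo methyltransferase gene, stood at 239 and 261 CPM against 225 and 238 CPM, with WT at 102 to 121 CPM, so both Pramel7 groups were above WT. No protein was measured here.

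Among 20 genes of the amino acid and endoplasmic reticulum stress response, 13 had both DuxKO_P7OE libraries above both P7OE libraries (20.8% of all tested genes). Of the 20, 7 passed an unadjusted p of 0.05 (11.2% of all tested genes) and 0 were called. Chac1, which degrades glutathione, stood at 18.8 and 21.5 CPM in P7OE and 30.1 and 51.4 CPM in DuxKO_P7OE. Trib3, a pseudokinase gene induced by this response, stood at 24.7 and 22.5 CPM against 32.5 and 50.9 CPM. In both genes the higher DuxKO_P7OE library was replicate 2, and the spread within DuxKO_P7OE was wider than the gap between the groups' nearest libraries. The list's median was 0.21. Of 18 p53 targets, 0 were called by edgeR, and Pmaip1, which encodes the BH3-only protein Noxa, stood at 9.13 and 7.49 CPM against 4.04 and 3.57 CPM (log2 fold change −1.13, edgeR quasi-likelihood, Benjamini-Hochberg adjusted p 0.174; DESeq2 0.0481).

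Many more genes were called for Dux knockout without Pramel7 overexpression. That comparison had 4 WT and 2 DuxKO libraries, all deeper than the DuxKO_P7OE libraries. The counts of calls in the 2 comparisons are therefore not directly comparable. Between DuxKO and WT in the same table, 3361 genes were called (16.7%), 1564 higher (7.76%) and 1797 lower (8.91%). In the second table, with other libraries, 3707 of 21193 were called (17.5%), 7.94% of the tested genes higher and 9.56% lower. Of the 1564 genes called higher in DuxKO, 438 were also called higher in the second table. Of the 1797 called lower, 663 were also called lower there. Of the 6 genes called between DuxKO_P7OE and P7OE, 5 (83.3%) were among the 3361 genes called in the same table, which is 0.149% of the 3361. All 5 were lower in DuxKO, and 3 of them were also called lower in the second table. The 1797 genes lower in DuxKO had a median log2 fold change of −1.24 between DuxKO and WT in the same table as P7OE. Between DuxKO_P7OE and P7OE their median was 0.03, and 47.5% of them were lower against 52.3% of all tested genes. The 1564 genes higher in DuxKO had a median of 0.79 between DuxKO and WT and of −0.07 between DuxKO_P7OE and P7OE, where 58.4% were lower. The 103 genes lower at 4-fold or more in both tables had a median of −3.01 between DuxKO and WT and of 0.01 between DuxKO_P7OE and P7OE. The 11 genes higher at 4-fold or more in both tables had a median of 3.15 between DuxKO and WT and of −1.65 between DuxKO_P7OE and P7OE (quartiles −2.32 and −0.87), where 81.8% of them were lower and 0 were called.

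**Figure D3:**
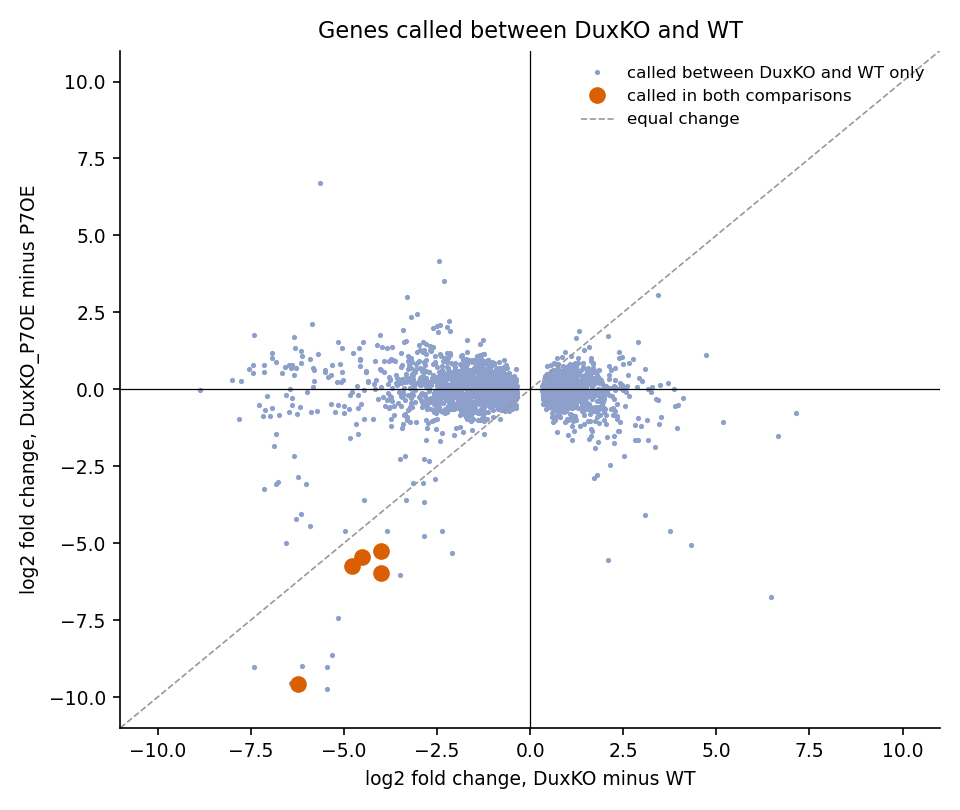
Each point is 1 of the 3361 genes called between DuxKO and WT, with that log2 fold change on the x axis and the log2 fold change of DuxKO_P7OE minus P7OE on the y axis; the dashed line marks equal change. Most points lie along the horizontal line at 0, and the 5 genes called in both comparisons, shown large, lie at the lower left.

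The difference between the 2 Dux contrasts was tested directly as an interaction, which called 1512 genes (7.5%), 861 with a higher (4.27%) and 651 with a lower value (3.23%) under Pramel7 overexpression. This count was 3184 without WT replicates 5 and 6, and ran from 651 to 860 with 1 P7OE, DuxKO_P7OE or DuxKO library left out. With the genes of chromosomes 8 and 11 left out, the interaction called 1148 genes. Any other difference between the WT, DuxKO, P7OE and DuxKO_P7OE cell populations enters the interaction and cannot be told apart from Pramel7 overexpression. Cdkn1c, an imprinted cell cycle inhibitor gene, is one of the clearest cases. It stood at 71.5 to 101 CPM in WT, 3.47 and 3.61 CPM in DuxKO, 95.7 and 92 CPM in P7OE and 80 and 86.3 CPM in DuxKO_P7OE. Only the DuxKO libraries, and P7KO at 10.5 and 12.3 CPM, were low. The log2 fold change of Cdkn1c was −4.63 between DuxKO and WT and −0.18 between DuxKO_P7OE and P7OE, and the interaction was 4.46 (edgeR quasi-likelihood, Benjamini-Hochberg adjusted p 1.39e-06). In the second table Cdkn1c was also lower in DuxKO, by a log2 fold change of −2.95.

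Of the 12 DNA methylation genes, the interaction called 2 in each direction, and the 2 shown here are low in DuxKO. Over all tested genes the interaction called 4.27% with a higher and 3.23% with a lower value. Dnmt3l, the cofactor of de novo DNA methylation, stood at 171 to 230 CPM in WT, 28.1 and 28.3 CPM in DuxKO, 243 and 241 CPM in P7OE and 207 and 218 CPM in DuxKO_P7OE. Dnmt3b stood at 264 to 377 CPM in WT, 51.5 and 40.8 CPM in DuxKO, 122 and 128 CPM in P7OE and 154 and 166 CPM in DuxKO_P7OE. For Dnmt3l the Pramel7 groups lay near WT, and for Dnmt3b they lay between WT and DuxKO, with DuxKO_P7OE above P7OE. The interaction was 2.65 for Dnmt3l and 3.14 for Dnmt3b (edgeR quasi-likelihood, Benjamini-Hochberg adjusted p 3.2e-05 and 3.19e-05), and neither gene was called between DuxKO_P7OE and P7OE. In the second table Dnmt3l was lower in DuxKO by a log2 fold change of −1.55 and Dnmt3b by −0.69.

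Of the 25 tested imprinted genes, 6 were called higher and 4 lower between DuxKO and WT, and of the 14 trophoblast genes, 1 higher and 5 lower. Over all tested genes 7.76% were called higher and 8.91% lower there. The interaction called 4 imprinted genes in each direction, against 4.27% of all tested genes with a higher and 3.23% with a lower value. The 3 genes that follow were low in DuxKO and were chosen after their values were seen, so they do not stand for either list. Phlda2, a placental growth restraint gene, stood at 11.5 to 16.3 CPM in WT, 0.447 and 0.572 CPM in DuxKO, 3.58 and 4.56 CPM in P7OE and 9.26 and 9.06 CPM in DuxKO_P7OE. Here DuxKO_P7OE stood above P7OE, by 1.18 on the log2 scale (SE 0.22), which DESeq2 called and edgeR did not (Benjamini-Hochberg adjusted p 0.00679 and, by edgeR quasi-likelihood, 0.103). Ascl2, a trophoblast transcription factor gene, stood at 3.35 to 4.85 CPM in WT, 0.112 and 0.0715 CPM in DuxKO, 2.52 and 2.13 CPM in P7OE and 3.58 and 3.66 CPM in DuxKO_P7OE. H19, a maternally expressed long noncoding RNA, was at 0.728 to 1.93 CPM in WT and 0 in both DuxKO libraries, and stood at 29.8 and 21.1 CPM in P7OE and 32.3 and 28.5 CPM in DuxKO_P7OE. The 2 Pramel7 groups overlapped for H19 and both were above WT. In the second table H19 was not lower in DuxKO (log2 fold change 0.99, not called), and Ascl2 was not called (−1.78).

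**Figure D4:**
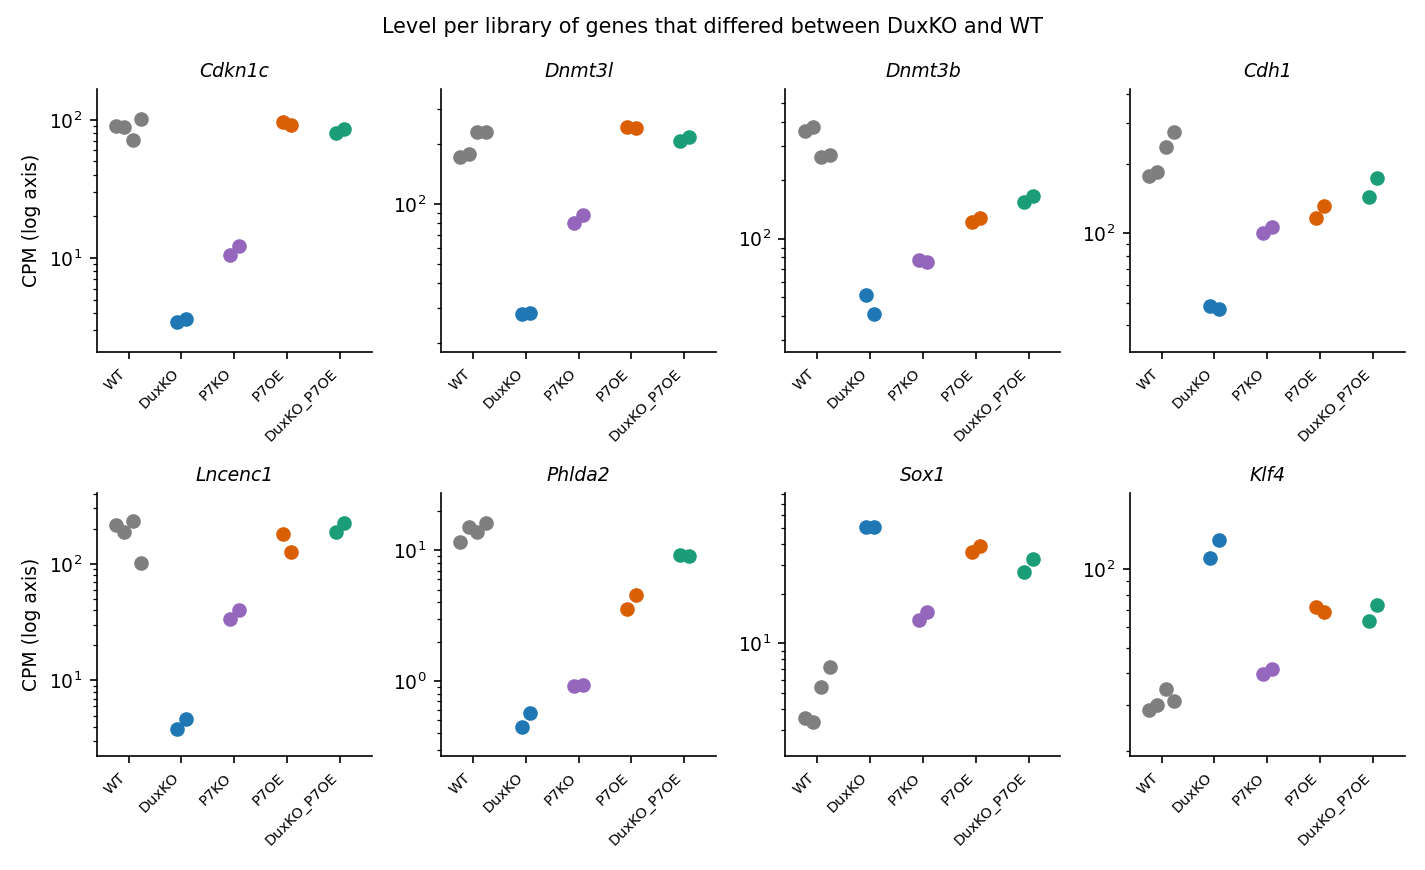
Level in CPM (log axis) of 8 genes in each of the 12 libraries, by group. For Cdkn1c, Dnmt3l, Dnmt3b, Cdh1, Lncenc1 and Phlda2 the DuxKO libraries are the lowest and DuxKO_P7OE lies at or above P7OE or just below it, and for Sox1 and Klf4 DuxKO is the highest group.

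Cdh1, the E-cadherin gene, stood at 177 to 275 CPM in WT, 48.3 and 47 CPM in DuxKO, 117 and 132 CPM in P7OE and 144 and 173 CPM in DuxKO_P7OE. Lncenc1, a long noncoding RNA of naive embryonic stem cells, stood at 101 to 235 CPM in WT, 3.86 and 4.72 CPM in DuxKO, 182 and 125 CPM in P7OE and 187 and 224 CPM in DuxKO_P7OE. Both Pramel7 groups were far above DuxKO for both genes, and DuxKO_P7OE lay above P7OE in both, without being called. In the other direction, Sox1, an early neural transcription factor gene, stood at 3.33 to 7.19 CPM in WT and 50.5 and 50.5 CPM in DuxKO, against 35.7 and 38.9 CPM in P7OE and 27 and 32.5 CPM in DuxKO_P7OE. Klf4 stood at 28.9 to 34.8 CPM in WT and 110 and 130 CPM in DuxKO, and both Pramel7 groups, given above, lay between these. The interaction was 2.54 for Cdh1, 5.83 for Lncenc1, −3.70 for Sox1 and −1.98 for Klf4, each called by edgeR (quasi-likelihood, Benjamini-Hochberg adjusted p 0.000137, 2.56e-05, 8.26e-05 and 6.36e-05). In the second table Klf4 did not differ between DuxKO and WT past the threshold (log2 fold change 0.09).

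Some genes were high in both Pramel7 groups and low in WT and DuxKO, so that Dux loss did not return them to the WT level. Serpina3m, a serine protease inhibitor gene, stood at 7.65 and 8.7 CPM in P7OE and 14.3 and 14.5 CPM in DuxKO_P7OE, against 0.0804 to 0.265 CPM in WT and 0 in DuxKO. Zfp951, a zinc finger gene, stood at 11.5 and 9.55 CPM against 7.25 and 7.62 CPM, with WT at 0.114 to 0.682 CPM and DuxKO at 0. Tuba3a, a testis tubulin gene and the most abundant member of the germline list, stood at 70.2 and 73.3 CPM against 103 and 86.5 CPM, with WT at 5.64 to 10.8 CPM and DuxKO at 3.8 and 4.75 CPM. None of the 3 was called between DuxKO_P7OE and P7OE. Of the 19 tested germline genes, 0 were called and the median was −0.07, and Rhox5, an X-linked homeobox gene, stood at 6.20 and 4.50 CPM against 7.80 and 7.23 CPM. Dppa5a, an embryonic stem cell RNA-binding protein gene, stood at 377 and 437 CPM against 367 and 357 CPM.

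Genes of 2 chromosomes differed together. Over genes whose average log2 CPM was 2 or more, the median log2 fold change of DuxKO_P7OE against P7OE was 0.26 on chromosome 11 (884 genes, 85.6% above 0) and −0.16 on chromosome 8 (622 genes, 26.2% above 0), against −0.03 over all 10859 such genes. The medians of the other chromosomes ran from −0.10 to 0.03. Of the 84 DESeq2 calls in the higher direction with a known chromosome, 43 were on chromosome 11, and of the 54 in the lower direction, 0 were on chromosome 11 and 9 on chromosome 8. Set against the WT mean, the median of chromosome 11 was 0.25 and 0.26 in the DuxKO_P7OE libraries and from −0.03 to 0.07 in the other 10. The median of chromosome 8 was 0.02 and 0.03 in the DuxKO_P7OE libraries and higher elsewhere outside WT, at 0.18 and 0.16 for P7OE, 0.33 and 0.35 for DuxKO, and 0.19 and 0.21 for P7KO. The Dux genotype and any other difference between the cell populations cannot be told apart here.

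**Figure D5:**
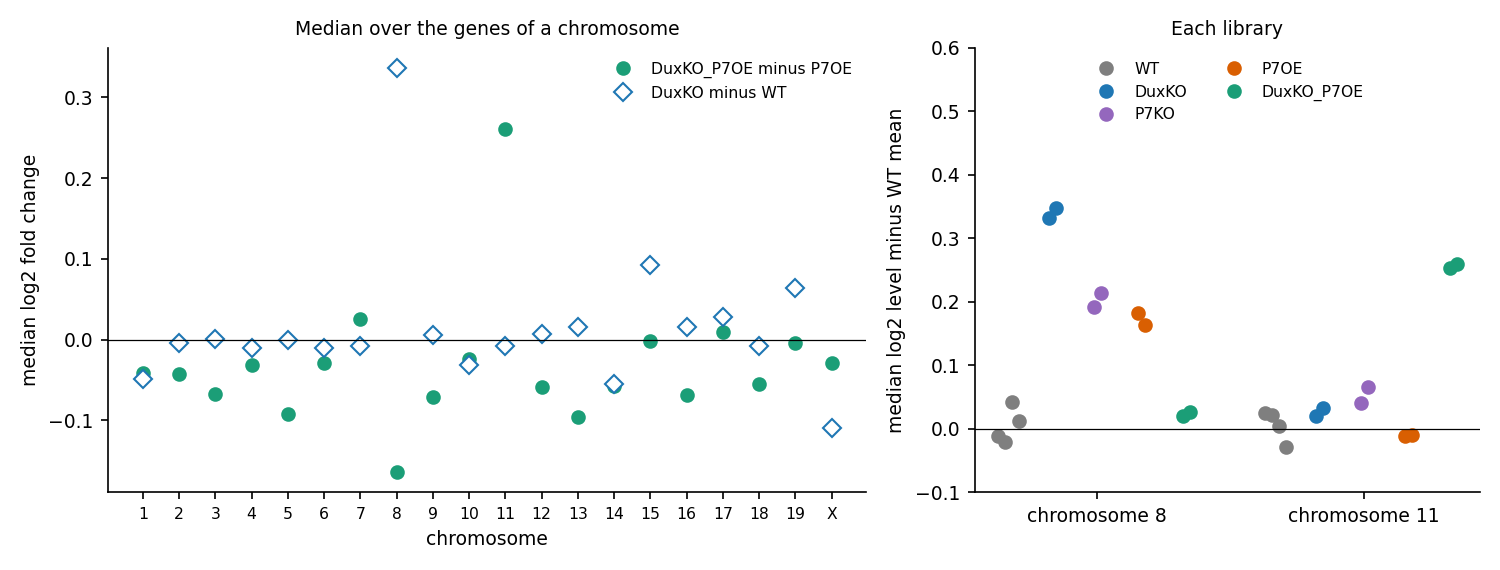
Left, the median log2 fold change of the genes on each chromosome, for DuxKO_P7OE minus P7OE (filled) and DuxKO minus WT (open); right, the median log2 level of chromosomes 8 and 11 in each library relative to the WT mean. Chromosome 11 is raised in the 2 DuxKO_P7OE libraries alone, at 0.25 and 0.26, and chromosome 8 is raised in DuxKO, P7KO and P7OE but not in DuxKO_P7OE.

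Single genes of chromosome 11 differed by more than that median. Castor1, an arginine sensor of the mTORC1 pathway, stood at 13.3 and 10.8 CPM in P7OE and 23.4 and 24.6 CPM in DuxKO_P7OE, or 0.99 on the log2 scale (edgeR quasi-likelihood, Benjamini-Hochberg adjusted p 0.0573; DESeq2 0.000159). Snap47, a SNARE protein gene, stood at 24.2 and 21.2 CPM against 39.9 and 46.3 CPM, and Mrpl55, a mitochondrial ribosome gene, at 7.71 and 7.67 CPM against 14.8 and 16.2 CPM. Tcf7, a transcription factor gene of the Wnt pathway, stood at 28.5 and 30.5 CPM against 46.1 and 49.7 CPM. In all 4 genes the groups did not overlap, and WT lay with P7OE or nearer to it. On chromosome 8, Abce1, a ribosome recycling factor gene, stood at 138 and 132 CPM against 81.1 and 83.4 CPM, and Itgb1, the integrin beta-1 gene, at 156 and 149 CPM against 99.8 and 98.3 CPM. Leaving the genes of chromosomes 8 and 11 out of the calls left all 6 called genes, since none of them lies there.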

How the data were processed

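RNA-seq counts per gene for 12 libraries, and for the WT and DuxKO libraries of a second table that was fitted on its own, were used as the authors deposited them. The submitters' processing notes name Trim Galore, HISAT2 and featureCounts and the build mm10; the strand setting is not given in the sources used here, so overlapping, antisense and near-identical genes are uncertain. Libraries were grouped by genotype label, and 0 columns of the table were unmapped. The comparison, its gene lists and the genes shown were chosen with earlier results of these data known.

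Of 55291 genes, 20161 passed edgeR's filterByExpr. edgeR 4.0.16 (R 4.3.3) fitted group means over all 12 libraries with TMM scaling and a quasi-likelihood F test. The p-values were adjusted by Benjamini-Hochberg over all tested genes, with a threshold of 0.05. Fold changes used a prior count of 0.125, and CPM (counts scaled to the library size) are relative to TMM-scaled totals. DESeq2 1.42.0 was the alternative. A gene at 0 in both DuxKO_P7OE libraries was compared with a floor of 3 counts per library. The labels name no molecular identifiers, so floors and intervals cover counting error only, and the shallower DuxKO_P7OE libraries set the precision for low genes. The difference between the Dux contrasts was an interaction in the same fit. It shares libraries with both contrasts and is no independent support for either.

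Genes were named by a rule: Duxf3 and Pramel7; called genes that are no predicted gene, by fold change and by p, with non-overlapping libraries and a higher group averaging 50 counts or more; the called and most abundant members of each list; and the largest interactions. Any other gene shown was chosen after its values were seen. Chromosomes and the 32851 promoter windows came by symbol from RefSeq (GRCm38.p6), which matched 17544 tested genes. Alternatives were other scaling, filters, tools, sets of libraries, a replicate block, and leaving out structural RNA or single libraries.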

Additional observations from a re-analysis of the deposited data

Results flagged for a closer look

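The difference between the 2 Dux contrasts was called in 1512 genes, by the interaction test of edgeR's quasi-likelihood fit with Benjamini-Hochberg adjustment. Pramel7 overexpression and any other difference between the cell populations cannot be told apart in it. Among the genes named here, the difference (Dux loss with Pramel7 overexpression minus Dux loss without it, log2 scale) was positive for Cdkn1c (4.46), Phlda2 (5.93), Lncenc1 (5.83), Dnmt3b (3.14), Dnmt3l (2.65), Cdh1 (2.54), Rhox5 (3.62), Tuba3a (1.42) and Castor1 (2.44). It was also positive for H19 (8.03), Serpina3m (5.91) and Zfp951 (5.90), whose DuxKO libraries were at 0, and for Ascl2 (6.15), with 2 counts in each DuxKO library. These 4 values rest on counts below the floor of 3 and are poorly determined. The difference was 0.99 for Snap47, 1.05 for Mrpl55 and 0.96 for Tcf7. It was negative for Sox1 (−3.70), Grin2a (−4.68), Cpe (−3.19), Klf4 (−1.98), Anxa3 (−1.85), Pmaip1 (−1.67), Tbx3 (−1.55), Atp5md (−1.38), Itgb1 (−0.91) and Abce1 (−0.76). Castor1, Snap47, Mrpl55 and Tcf7 lie on chromosome 11, where the median difference over genes whose average log2 CPM was 2 or more was 0.26. Itgb1 and Abce1 lie on chromosome 8, where that median was −0.51.

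One WT library stood apart from the other 3 for 2 genes. Grin2a was lowest in WT replicate 3, at 0.908 CPM, and Tcf7 was highest in WT replicate 5, at 30.4 CPM. Chance gives such a mark in about 1 in 20 groups.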

How the results depend on the processing

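The 6 calls between DuxKO_P7OE and P7OE became 350 with no filter on low counts (214 higher), 147 by DESeq2 (87 higher), 63 in a fit of the compared groups alone (35 higher) and 403 without WT replicates 5 and 6 and P7KO (252 higher). The replicate block gave 333 calls (203 higher). The labels share the numbers 1 and 2 without saying what they mean, and same-numbered libraries deviated with r = 0.10 over 11562 genes, so the block is only a hint. With 1 library left out there were 2 to 11 calls. The 1512 interaction calls became 3054 without WT replicates 5 and 6 and P7KO, 3184 without WT replicates 5 and 6 only, 2860 with the replicate block and 651 to 860 with 1 library left out. Genes called in both Dux comparisons rose from 5 to 47 by DESeq2. The median of the genes higher in DuxKO moved from −0.0678 to −0.0487 without WT replicates 5 and 6 and P7KO, and lay between −0.0908 and −0.0709 with 1 library left out. The median of the genes lower in DuxKO moved from 0.0301 to 0.0513 in the same fit and to −0.000794 without chromosomes 8 and 11, which was chosen after seeing the data, and lay between −0.0163 and 0.0191 with 1 library left out. The log2 fold change of Klf4, −0.0354 with all libraries, ran from −0.148 to 0.0471 with 1 library left out and so changed sign. The cause of these shifts was not tested. With 2 libraries a group and 10123058 counts in the shallowest, modest changes in genes of low level could not be resolved.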

Other observations

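On chromosome 19, 3 adjacent genes were lower in DuxKO_P7OE than in P7OE, without an edgeR call; they were chosen after their values were seen. Atp5md, a subunit gene of the mitochondrial ATP synthase, stood at 48.1 and 35 CPM in P7OE and 8.9 and 16.6 CPM in DuxKO_P7OE. Its neighbour Taf5, a subunit gene of the general transcription factor TFIID, stood at 60 and 46.7 CPM against 19.4 and 32.2 CPM. Next to it, Pcgf6, a subunit gene of a Polycomb complex that represses germline genes, stood at 57.6 and 46.1 CPM against 20.2 and 27 CPM. The groups did not overlap for any of the 3. DESeq2 called all 3 (Benjamini-Hochberg adjusted p 6.59e-05, 0.0247 and 0.00392), and edgeR's quasi-likelihood test called none of them (Benjamini-Hochberg adjusted p 0.0953, 0.197 and 0.15). Of the 6 tested genes within 100000 bases of the start of Pcgf6, the other 3 did not share the drop. Ina stood at 58.1 and 58.3 CPM against 70.4 and 80.5 CPM, Pdcd11 at 148 and 163 CPM against 160 and 166 CPM, and Calhm2 at 9.42 and 9.07 CPM against 8.44 and 9.93 CPM. The ends of Taf5 and Atp5md overlap in the annotation, so reads there are uncertain.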
